A study of Cyanidioschyzon merolae with 29 samples.

Results

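The comparison described here asks how the transcriptome of *Cyanidioschyzon merolae* differed between 2 nickel doses at the first sampling after exposure. It sets the 3 libraries of cultures kept 5 days in 3 mM Ni, labelled 3C, 3D and 3E, against the 3 libraries of cultures kept 5 days in 1 mM Ni, labelled 1A, 1B and 1C. These are 6 of the 29 libraries of the series, and 4796 of the 4984 genes in the table of counts passed the filter on low counts and were tested. *C. merolae* is a unicellular red alga of hot, acidic springs, and the strain was the wild type NIES-3377. All cultures were grown at 42 °C and pH 2.5 in a modified Allen medium under continuous white light, and nickel was given as nickel sulfate when the stock culture was diluted into fresh medium. The 3 untreated cultures of day 5, labelled C3, C4 and C5, had no added Ni and are given beside the values. The study's methods describe the 3 cultures of a condition as independent biological replicates. RNA was enriched for polyadenylated molecules before sequencing, and 5 samples that the labels do not name were purified a second time.

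Nickel is a trace nutrient that becomes toxic in excess, when it displaces other metals in proteins, favours misfolding and disturbs the photosynthetic electron chain. Red algae collect light with phycobilisomes, which are large assemblies of phycocyanin and allophycocyanin held by linker proteins on photosystem II, and with chlorophyll-binding antenna proteins at photosystem I. Electrons then pass through the cytochrome b6-f complex to photosystem I, and the proton gradient drives a chloroplast ATP synthase. The chloroplast genome of red algae encodes many of these subunits, while the antenna proteins, some linkers and the Rieske iron-sulfur subunit of cytochrome b6-f are encoded in the nucleus.

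The 6 libraries held 2950884 to 3399504 counts, with 4887 to 4900 genes detected and a median of 342.5 to 377 counts per gene. They were of algal origin by the markers checked. Of the 207 chloroplast-encoded genes 185 had at least 1 count in each of the 6 libraries, as had 22 of the 34 mitochondrion-encoded genes. Chloroplast-encoded genes took 3.42% ± 0.349 (SD, n = 3) of the counts at 1 mM and 2.89% ± 0.0822 (SD, n = 3) at 3 mM, a difference of -0.532 percentage points. The groups did not overlap, and the exact two-sided permutation test gave p = 0.1, the smallest value that 3 against 3 libraries allow. The share in the untreated libraries was 5.02% ± 1.03 (SD, n = 3).

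The libraries at 3 mM did not form a tight group, which bears on every result below. The root mean square difference in log2 CPM (counts divided by the library size, which TMM factors adjust) was 0.20 between 3D and 3E but 0.47 and 0.49 between 3C and these libraries. Library 3C lay closer to the 1 mM libraries, at 0.34 to 0.43, than to its own group. The 1 mM libraries differed among themselves by 0.19 to 0.28, with 1C the farthest from the others. The untreated libraries were also divided. C3 lay 0.32 to 0.45 from the 1 mM libraries, and 0.77 and 0.72 from C4 and C5, which were 0.27 apart. No pair of libraries within a dose agreed within sampling noise, since the chi-square per degree of freedom was 2.77 or more, and all were counted as separate replicates.

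**Figure D1:**
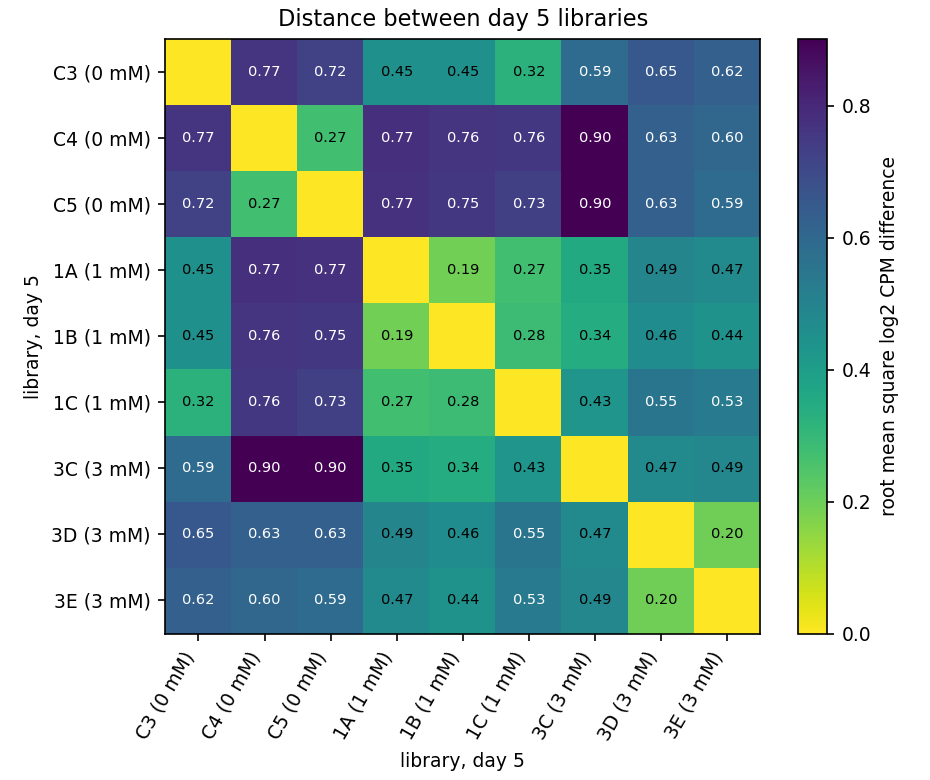
Root mean square difference in log2 CPM over the tested genes between each pair of the 9 libraries of day 5, with the Ni dose beside each library name and darker cells farther apart. Library 3C lies nearer to 1A and 1B (0.35 and 0.34) than to 3D and 3E (0.47 and 0.49), and C3 lies nearer to 1C (0.32) than to C4 and C5 (0.77 and 0.72).

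The position of 3C was visible gene by gene. Both 3D and 3E lay outside the range of the 1 mM libraries for 3095 genes, or 64.5% of those tested. For 1548 of them 3C lay on the same side, for 717 it was within the 1 mM range, and for 830 it was past that range on the other side. The chloroplast share and the number of detected genes did not set 3C apart from its group. Its chloroplast share of 2.79% lay next to the 2.95% and 2.91% of 3D and 3E. The share of mitochondrion-encoded genes was 0.0230% in 3C, 0.0306% in 3D and 0.0280% in 3E. At 1 mM it was 0.0146% to 0.0179%, so that 3C lay between these groups there. What else 3C may share with the 1 mM cultures was not tested.

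Few genes passed the threshold. In the fit of all 29 libraries, 4 genes had an adjusted p under 0.05 and are called DEGs (differentially expressed genes), which is 0.0834% of the genes tested. Of these 2 rose and 2 fell at 3 mM. In all, 626 genes had an unadjusted p under 0.05, called the nominal level in what follows, 268 higher at 3 mM (5.59% of those tested) and 358 lower (7.46%). The 3 libraries at 3 mM lay all above those at 1 mM for 715 genes (14.9%) and all below for 833 (17.4%). The median log2 fold change over all tested genes was 0.00, the median of its size was 0.19 and the median standard error was 0.20.

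The count of DEGs depended on which libraries set the spread. A fit of the 6 compared libraries alone had a biological coefficient of variation of 0.135, against 0.205 for all 29, and called 249 of 4719 genes, 133 higher (2.82%) and 116 lower (2.46%), among them all 4 DEGs. Without 3C that fit called 1985 of 4735 genes, 1017 higher (21.5%) and 968 lower (20.4%). All of the 249 were among them, and they made up 12.5% of the 1985. Without 1A, 1B, 1C or 3D the same fit called 0 genes, and without 3E it called 2. With all 29 libraries, leaving out 3C gave 3 DEGs, 1 higher and 2 lower. The gene groups below are therefore described by their values in each library, with counts from the fit of all 29, from the 6 libraries and from the 6 without 3C.

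None of the 4 DEGs carries a description in the files. *CMP323C* (chromosome 16, positions 811403 to 812437 in ASM9120v1) measured 43.5, 43.3 and 25.3 CPM in 1A, 1B and 1C, and 73.8, 83.5 and 76.7 CPM in 3C, 3D and 3E. Its untreated levels were 18.3, 28.3 and 25.8 CPM in C3, C4 and C5, so that the level in 1C was within the untreated range and those in 1A and 1B were between the untreated and the 3 mM cultures. The gene rose at 3 mM with a log2 fold change of 1.06 ± 0.20 (SE), a 2.09-fold difference with an adjusted p of 0.0256 in edgeR. *CMR361C* (chromosome 18, positions 873751 to 874266) measured 54.9, 57.4 and 43.6 CPM at 1 mM and 85.2, 106 and 102 CPM at 3 mM, against 45.2 to 70.8 CPM without Ni. It rose with a log2 fold change of 0.92 ± 0.17 and an adjusted p of 0.0256, and the 1 mM libraries overlapped the untreated ones.

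*CMJ107C* (chromosome 10, positions 313884 to 314861) measured 163, 165 and 183 CPM at 1 mM and 99.6, 80.2 and 103 CPM at 3 mM. It had the lowest p of all tested genes and fell with a log2 fold change of -0.85 ± 0.14 and an adjusted p of 0.0124. The untreated libraries held 154 to 211 CPM and overlapped those at 1 mM. *CMV241C*, which is encoded in the chloroplast, measured 639, 545 and 899 CPM at 1 mM and 381, 252 and 259.8 CPM at 3 mM, with a log2 fold change of -1.22 ± 0.23 and an adjusted p of 0.0256. Its untreated libraries held 994, 700.2 and 715 CPM. In all 4 genes 3C lay beyond every 1 mM library. In *CMP323C*, *CMR361C* and *CMV241C* it was the library of its group nearest to them.

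**Figure D2:**
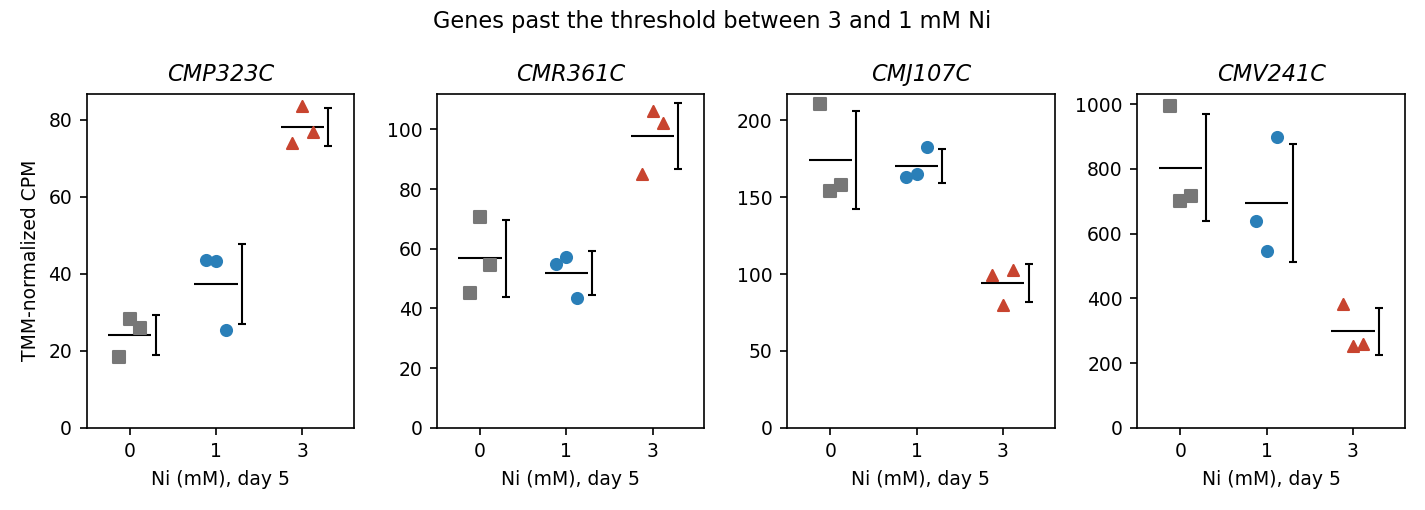
TMM-normalized CPM of the 4 DEGs in the 9 libraries of day 5 by Ni dose (grey squares 0 mM, blue circles 1 mM, red triangles 3 mM; horizontal lines are means and bars are SD, n = 3). The 3 mM libraries do not overlap those at 1 mM in any panel, with 73.8 to 83.5 against 25.3 to 43.5 CPM for *CMP323C*.

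Each of the 4 calls rested on single libraries. Without 1C the adjusted p of *CMR361C*, *CMP323C* and *CMV241C* was 0.282 and that of *CMJ107C* 0.155. Without 3D it was 0.309, 0.309, 0.33 and 0.295 in the same order, and without 3E 0.157, 0.118, 0.204 and 0.0631. Leaving out 1A gave 0.0826, 0.0815 and 0.0815 for the first 3 of these genes, and leaving out 3C gave 0.0584 for *CMP323C*. The direction was kept in all 29 fits without a library. In a fit of the 9 libraries of day 5 none of the 4 passed, with adjusted p of 0.0968 for *CMJ107C* and 0.101 for the others, and DESeq2 gave an adjusted p for *CMV241C* alone. Next after the threshold came *CMM189C*, hydroxymethylglutaryl-CoA synthase of isoprenoid synthesis, named here after its value was seen. It measured 205, 222 and 244 CPM at 1 mM and 148, 135 and 154 CPM at 3 mM, with an adjusted p of 0.0503.

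Many genes of light harvesting were lower at 3 mM than at 1 mM, although none passed the threshold in the edgeR fit of all 29 libraries. DESeq2, likewise fitted to all 29, gave an adjusted p for 824 genes, of which 70 passed as lower and 2 as higher. There *CMQ142C*, *CMN234C*, *CMV158C* and *CMV159C* passed as lower, each with an adjusted p of 0.00592. So did *CMV048C* (0.000743) and *CMP166C* (0.0177), while *CMV240C* was given no adjusted p. The adjusted p values of these genes below are those of edgeR. Both antenna proteins found by description, 7 of 10 phycobilisome proteins and 10 of 22 photosystem II genes were lower at the nominal level, beside 7.46% of all genes. Their median log2 fold changes were -1.80, -1.05 and -0.61, against 0.00 for all genes. These groups were formed from the descriptions after the values had been seen, so their counts describe and do not test. In the fit of the 6 libraries 2, 5 and 6 of them passed as lower, and without 3C 2, 7 and 10. Of photosystem II 2 genes passed as higher in the former and 4 in the latter. Of all genes 2.46% passed as lower and 2.82% as higher in the former, and 20.4% and 21.5% in the latter.

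*CMQ142C*, a light-harvesting protein, was the most lowered of the nuclear antenna genes. It measured 4285, 3094 and 5967 CPM in 1A, 1B and 1C and 1735, 869 and 902 CPM in 3C, 3D and 3E, with a log2 fold change of -1.93 ± 0.52 and an adjusted p of 0.129. All 3 libraries at 3 mM lay below those at 1 mM, with 3C between the rest of its group and the 1 mM libraries. The untreated libraries fell into the same pair of levels, with 6196 CPM in C3 and 1139 and 1308 CPM in C4 and C5. *CMN234C*, described as a chlorophyll a/b-binding protein, measured 4015, 2877 and 5398 CPM at 1 mM and 1852, 991 and 1002 CPM at 3 mM, with 5653 CPM in C3 and 1359.8 and 1391 CPM in C4 and C5. Its log2 fold change was -1.68 ± 0.47 with an adjusted p of 0.140. The gene with the next locus number, *CMN235C*, has no description and lay at 1604 to 2243 CPM at 1 mM and at 586 to 921 CPM at 3 mM. Another gene without description, *CMT183C*, lay at 459 to 629 CPM at 1 mM and 172 to 254 CPM at 3 mM.

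The core of the phycobilisome followed the same order. Allophycocyanin alpha (*CMV158C*), a chromophore protein of the core, measured 1633, 1135 and 2159 CPM at 1 mM and 908, 596 and 600.2 CPM at 3 mM. Allophycocyanin beta (*CMV159C*) measured 1243, 909 and 1777 CPM at 1 mM and 697, 474 and 509.8 CPM at 3 mM. Their log2 fold changes were -1.23 ± 0.33 and -1.22 ± 0.33, each with an adjusted p of 0.129. The allophycocyanin B18 chain (*CMV048C*), a minor core protein, came closest to the threshold in edgeR with an adjusted p of 0.0585. It measured 504, 359.9 and 591 CPM at 1 mM and 208, 182 and 214 CPM at 3 mM, and 3C did not stand apart there. Unlike the antenna genes, the allophycocyanin genes named here were above the 3 mM libraries in all untreated ones. The untreated C3, C4 and C5 held 734, 441 and 526 CPM for *CMV048C*. They held 2504, 1103 and 1270.3 CPM for *CMV158C* and 2017, 792 and 1042 CPM for *CMV159C*. The linker *CMP166C*, which joins phycocyanin discs into rods, measured 7277, 5602 and 8420.3 CPM at 1 mM and 3665, 2402 and 2589.7 CPM at 3 mM, with a log2 fold change of -1.30 ± 0.41. Phycocyanin alpha and beta (*CMV063C* and *CMV064C*) had only 4.61 to 26.4 CPM, and their dose groups overlapped.

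In photosystem II the genes named here lay on both sides. Protein I (*CMV240C*), a small reaction centre subunit, measured 17.1, 18.1 and 22.4 CPM at 1 mM and 5.66, 5.90 and 4.07 CPM at 3 mM, with a log2 fold change of -1.88 ± 0.39 and an adjusted p of 0.0557. The 3 mM libraries lay close together there, and the untreated ones overlapped those at 1 mM. Its locus number is next to that of the DEG *CMV241C*. Psb28 (*CMV089C*), an assembly factor, went the other way with 2.90, 3.99 and 4.94 CPM at 1 mM and 7.86, 28.3 and 27.9 CPM at 3 mM. The D1 protein (*CMV047C*) of the reaction centre measured 139, 131 and 185 CPM at 1 mM and 228, 337 and 287 CPM at 3 mM, with a log2 fold change of 0.91 ± 0.94. It was named after its value was seen, as were *CMV063C*, *CMV064C*, *CMI281C* and *CMV096C*.

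Cytochrome b6-f was divided by subunit. The nuclear genes *CMQ165C* and *CMO066C*, both described as its iron-sulfur subunit, were higher at 3 mM. *CMQ165C* measured 65.9, 71.2 and 95.5 CPM at 1 mM and 152, 232 and 167 CPM at 3 mM, with a log2 fold change of 1.24 ± 0.28 and an adjusted p of 0.0822. *CMO066C* measured 58.9, 61.7 and 82.2 CPM at 1 mM and 151, 214 and 149 CPM at 3 mM, with a log2 fold change of 1.34 ± 0.31 and an adjusted p of 0.0989. Without Ni they lay at 32.1 to 67.5 and 14.8 to 47.4 CPM, which for *CMQ165C* overlapped the 1 mM libraries and for *CMO066C* was below them. The values of these genes run closely together, and reads they might share were not examined. The third gene of that description, *CMI281C*, had 1449.7 to 1522 CPM at 1 mM and 1249.8 to 1384 CPM at 3 mM, and its log2 fold change was -0.16 ± 0.19. The chloroplast-encoded small subunit 8 (*CMV148C*) was lower, with 37.7, 30.4 and 47.0 CPM at 1 mM and 19.2, 11.2 and 13.1 CPM at 3 mM. Cytochrome b6 itself (*CMV096C*), which spans the membrane, lay at 2285 to 2583 CPM at 1 mM and 2950.1 to 3242 CPM at 3 mM.

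The genes of photosystem I and of the ATP synthase had medians near or above 0. Of 12 photosystem I genes 2 were lower at the nominal level and 0 higher, beside 7.46% and 5.59% of all genes. Their median log2 fold change was -0.05. Of 9 chloroplast ATP synthase genes 8 had a positive log2 fold change, with a median of 0.77. At the nominal level 0 of the 9 were higher and 1 was lower. In the fit of the 6 libraries 0 of the 9 passed, beside 2.82% of all genes as higher and 2.46% as lower. Without 3C 7 of the 9 passed as higher and 1 as lower, beside 21.5% and 20.4% of all genes. The exception in direction was the nuclear gamma subunit *CMQ087C*, at 966 to 1133 CPM at 1 mM and 746 to 810.0 CPM at 3 mM.

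**Figure D3:**
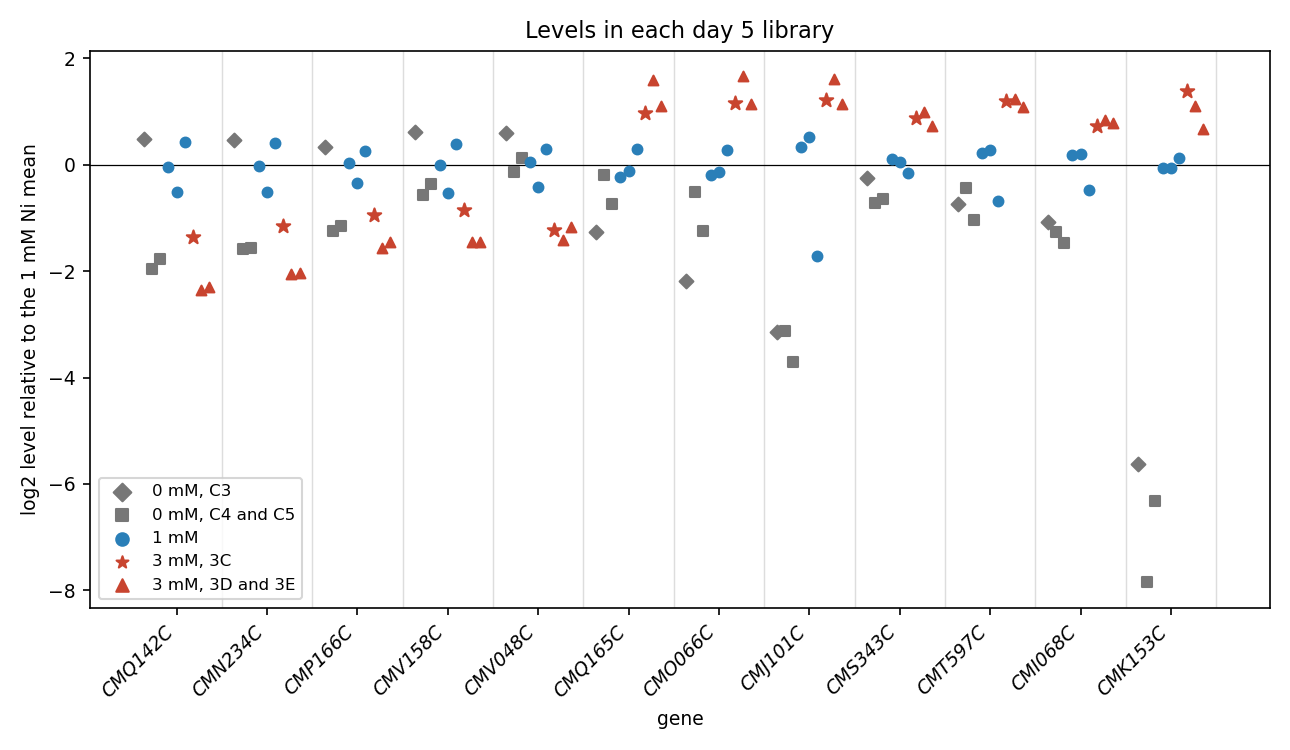
Level of 12 genes in each library of day 5, as log2 of the CPM relative to the mean of the 1 mM libraries (grey 0 mM, with C3 as diamonds; blue circles 1 mM; red 3 mM, with 3C as stars). For the antenna genes *CMQ142C* and *CMN234C* the libraries C4 and C5 lie with 3D and 3E while C3 lies with the 1 mM libraries, and for *CMK153C* the untreated libraries (0.373 to 1.73 CPM) lie far below all others.

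Chloroplast-encoded genes as a whole had a median log2 fold change of 0.01, and the balance of their calls turned with 3C. Of 190 tested, 15 were higher and 27 lower at the nominal level, beside 5.59% and 7.46% of all genes, with 1 DEG. In the fit of the 6 libraries, which tested 160, 8 passed as higher and 21 as lower, beside 2.82% and 2.46% of all genes. Without 3C it was 69 and 38, beside 21.5% and 20.4% of all genes. The spread was wide, from -2.27 to 3.43. Of the 86 tested genes with a log2 fold change over 1, 44 were chloroplast-encoded, as were 15 of the 42 under -1. The 35 tested chloroplast ribosomal protein genes had a median of 1.22, with 3 higher and 3 lower at the nominal level. The fit of the 6 libraries tested 25 of them and called 0 higher and 3 lower, beside 2.82% and 2.46% of all genes. Without 3C that fit called 14 higher and 5 lower. Its median of 0.69 covers only the genes it tested and is not comparable with 1.22. In the fit of all 29 libraries, leaving out 3C gave a median of 1.67.

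Of the 10 largest positive values among genes at the nominal level, with doses that did not overlap and a mean of at least 5 CPM, 9 belonged to chloroplast genes with few counts. They rested on 3D and 3E. The replicative DNA helicase *CMV098C*, which unwinds DNA at the fork, measured 3.77, 3.07 and 3.77 CPM at 1 mM, 4.71 CPM in 3C and 51.0 and 59.3 CPM in 3D and 3E. *CMV100C*, described as the molybdopterin synthesis protein MoeB, measured 3.19, 4.61 and 4.94 CPM at 1 mM and 8.17, 60.5 and 55.5 CPM at 3 mM. Their log2 fold changes were 3.43 ± 1.34 and 3.28 ± 1.34, with adjusted p of 0.282 and 0.302. The untreated levels were as far apart, from 19.7 to 99.9 CPM and from 23.1 to 96.6 CPM. The other 7 chloroplast genes among these 10 ranged in log2 fold change from 1.69 for *CMV080C*, a transcriptional regulator of the OmpR type, to 2.54 for *CMV012C*, a thioredoxin. Between them lay *CMV121C*, a glycosyl transferase, *CMV102C*, a ribosomal protein of the large subunit, *CMV091C*, a remnant of a ribosomal protein of the small subunit, *CMV036C*, a carbamoyl-phosphate synthase chain, and *CMV089C*. In each of these 9 genes 3C was the 3 mM library nearest to the 1 mM level. The only nuclear gene among the 10 was *CMT284C*, described as similar to a permease for glycerophosphoinositol. It measured 47.6, 56.5 and 56.9 CPM at 1 mM and 113, 419 and 355 CPM at 3 mM. Its untreated libraries held 2.07, 350.1 and 78.7 CPM, from below all libraries at 1 mM to between 3C and the higher 3 mM libraries.

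**Figure D4:**
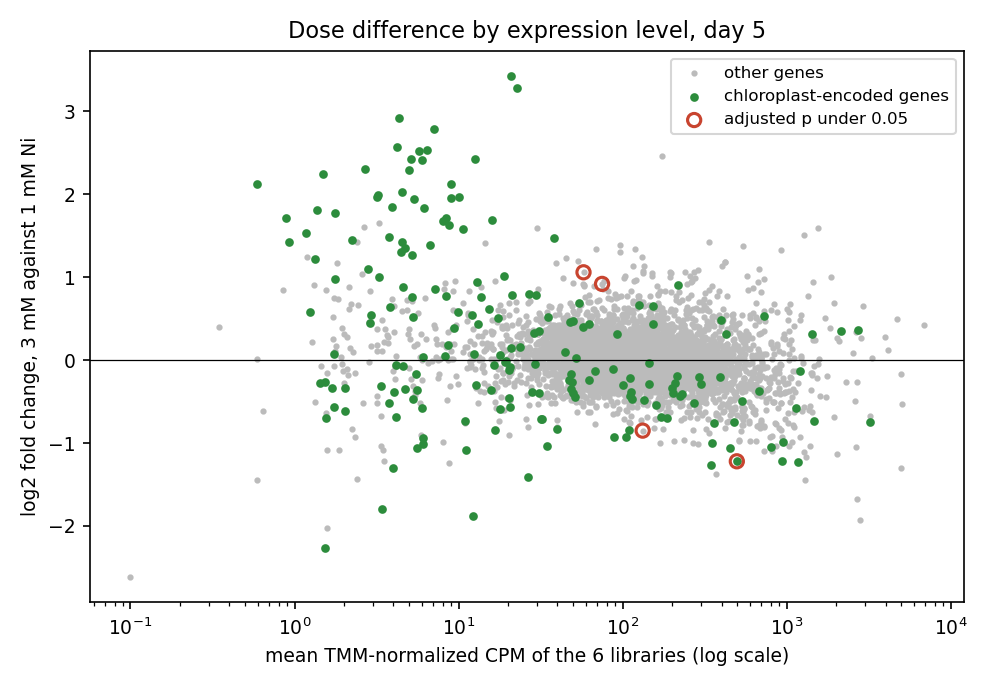
Log2 fold change of 3 mM against 1 mM Ni on day 5 by mean TMM-normalized CPM of the 6 libraries (log scale), with chloroplast-encoded genes in green, all other tested genes in grey and the 4 DEGs ringed. Positive values above 2 come mostly from chloroplast-encoded genes of low CPM, while the ringed genes have smaller changes.

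Among genes of protein folding, 0 of 46 taken by words of the description passed the threshold in the edgeR fit of all 29 libraries, while 8 were higher and 0 lower at the nominal level and 34 had a positive log2 fold change, with a median of 0.17. Heat shock proteins and chaperonins help proteins to fold or refold, and their genes respond to many stresses. A narrower list of 15 loci, taken from among those the study names, had a positive log2 fold change in all 15, with a median of 0.42 and a range from 0.09 to 1.33. In 13 of the 15 the 3 libraries at 3 mM lay above those at 1 mM, beside 14.9% of all genes, and in 0 below. Of the 15, 3 were higher at the nominal level and 0 lower, beside 5.59% and 7.46% of all genes. The study chose these loci on its own results, so they are no independent evidence of a direction. The fit of the 6 libraries called 2 of the 15 as higher and 0 as lower, and 10 and 0 without 3C. Of the 46 it called 4 and 0, and 17 and 2 without 3C. Of all genes it called 2.82% higher and 2.46% lower, and 21.5% and 20.4% without 3C.

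The small heat shock protein *CMJ101C*, which holds unfolded proteins, had the largest difference of the 15. It measured 662, 757 and 159 CPM in 1A, 1B and 1C and 1213, 1593 and 1151 CPM in 3C, 3D and 3E, with a log2 fold change of 1.33 ± 0.49 and an adjusted p of 0.261. The untreated libraries lay between 40.4 and 60.4 CPM, below all 6. The Hsp110 chaperone *CMS343C*, a partner of Hsp70, measured 473, 453 and 391 CPM at 1 mM and 810.1, 866 and 724 CPM at 3 mM, with a log2 fold change of 0.87 ± 0.29. *CML088C*, a GrpE nucleotide exchange factor for Hsp70, measured 105, 109.9 and 84.8 CPM at 1 mM and 171, 165 and 142 CPM at 3 mM, with a log2 fold change of 0.67 ± 0.21. Cytosolic Hsp70 (*CMP145C*), a general folding chaperone, lay at 3298 to 4199.5 CPM at 1 mM and 4755 to 6021 CPM at 3 mM. The exceptions were the chloroplast chaperonin *CMB021C* and the chloroplast GrpE *CMT423C*, in which 3C was highest and 3D and 3E lay at or below the 1 mM level. A heat shock transcription factor, *CMT597C*, which switches on such genes, measured 28.2, 29.5 and 15.1 CPM at 1 mM and 55.6, 57.2 and 51.2 CPM at 3 mM. Its log2 fold change was 1.17 ± 0.36 with an adjusted p of 0.177.

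Ubiquitin marks proteins for degradation. Of 48 genes of its pathway 6 were higher and 0 lower at the nominal level, with a median of 0.06, beside 5.59% and 7.46% of all genes. The fit of the 6 libraries called 2 higher and 0 lower of 47, beside 2.82% and 2.46% of all genes. Without 3C it called 17 and 2, beside 21.5% and 20.4%. The ubiquitin-conjugating enzyme variant *CMF187C* measured 31.4, 45.4 and 40.6 CPM at 1 mM and 55.9, 135 and 106 CPM at 3 mM, and the hydrolase *CMQ026C*, which removes ubiquitin, 77.2 to 81.1 CPM and 107 to 144 CPM. Among 28 proteasome genes *CMH119C*, a beta subunit, was higher at the nominal level and 0 were lower, a share below that of all genes. The 6 libraries gave 0 calls among them, and without 3C 6 higher and 4 lower, beside 21.5% and 20.4% of all genes.

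A list of 8 loci was taken as Ni-responsive from earlier results of these data, which makes it no independent evidence. Of these, 4 had higher and 1 had lower levels at 3 mM at the nominal level, with a median log2 fold change of 0.62, beside 5.59% and 7.46% of all genes. In the fit of the 6 libraries 4 and 0 passed, beside 2.82% and 2.46% of all genes. Without 3C it was 5 and 1, beside 21.5% and 20.4%. *CMK153C*, a protein without description, measured 1.73, 0.373 and 1.07 CPM in the untreated C3, C4 and C5. It held 82.2, 82.0 and 93.5 CPM at 1 mM and 223, 183 and 137 CPM at 3 mM, a log2 fold change between the doses of 1.08 ± 0.39 with an adjusted p of 0.256. Here 3C was the highest of its group. *CMI068C* measured 177, 179.9 and 112 CPM at 1 mM and 258, 278 and 270.3 CPM at 3 mM, above 56.6 to 73.9 CPM without Ni. *CMI023C* measured 242, 263 and 234 CPM at 1 mM and 401, 363 and 378 CPM at 3 mM, above 43.3 to 88.7 CPM without Ni. *CMO185C*, described as similar to hedgehog protein, lay at 137 to 211 CPM at 1 mM, 331 to 409 CPM at 3 mM and 24.2 to 95.1 CPM without Ni. *CMQ297C* ran the other way, from 531 to 567 CPM without Ni to 291 to 438 CPM at 1 mM and 199 to 233 CPM at 3 mM. Its log2 fold change between the doses was -0.70 ± 0.18 with an adjusted p of 0.124. *CMD002C*, a trefoil factor homologue, *CMI067C* and the DNA methyltransferase *CMR026C* had log2 fold changes of 0.43, 0.61 and 0.20, and *CMI067C* and *CMR026C* had few counts, with highest values of 6.6 and 13.2 CPM at 3 mM.

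None of 14 metal transport loci named by the study passed the threshold in the edgeR fit of all 29 libraries. At the nominal level 1 was higher and 1 lower, beside 5.59% and 7.46% of all genes. Log2 fold changes of the 14 ran from -0.55 to 0.45 with a median of 0.05. The lower one was *CMJ138C*, a metal ion transporter, with 533, 469.5 and 554 CPM at 1 mM and 326, 362 and 371 CPM at 3 mM, against 561 to 589 CPM without Ni. The higher one was the zinc transporter *CMG102C*, with 52.8, 60.8 and 42.4 CPM at 1 mM and 69.4, 64.3 and 65.7 CPM at 3 mM. The zinc transporter *CMS155C* was at 6.44 to 8.63 CPM without Ni and overlapped between the doses, with 143, 122 and 40.6 CPM at 1 mM and 186, 117 and 112 CPM at 3 mM. The metal ion transporter *CML262C* overlapped likewise, at 116 to 253 CPM and 201 to 240.4 CPM, against 10.4 to 34.2 CPM without Ni. *CMG092C*, similar to a periplasmic protein p19, had no count in the 3 untreated libraries, where a count of 0 allows up to 3 counts each, and 6.10 to 9.87 CPM at 1 mM and 4.07 to 12.3 CPM at 3 mM. The high-affinity iron permease *CML004C*, which takes up iron, lay at 43.3 to 102 CPM at 1 mM and 69.9 to 107 CPM at 3 mM. In *CMS155C*, *CML262C* and *CML004C* the lowest of the 6 libraries was 1C. The ABC transporter *CMN105C*, which pumps substrates with ATP, measured 128 to 134 CPM at 1 mM, 92.1 CPM in 3C, and 228 and 223 CPM in 3D and 3E. The other 7 loci had log2 fold changes from -0.31 to 0.39. In the fit of the 6 libraries 1 of the 14 passed as lower and 0 as higher, beside 2.46% and 2.82% of all genes. It was *CMJ138C*, with an adjusted p of 0.0391 in edgeR. Without 3C 1 passed as lower and 2 as higher, beside 20.4% and 21.5% of all genes. DESeq2 gave *CMJ138C* an adjusted p of 0.0128.

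**Figure D5:**
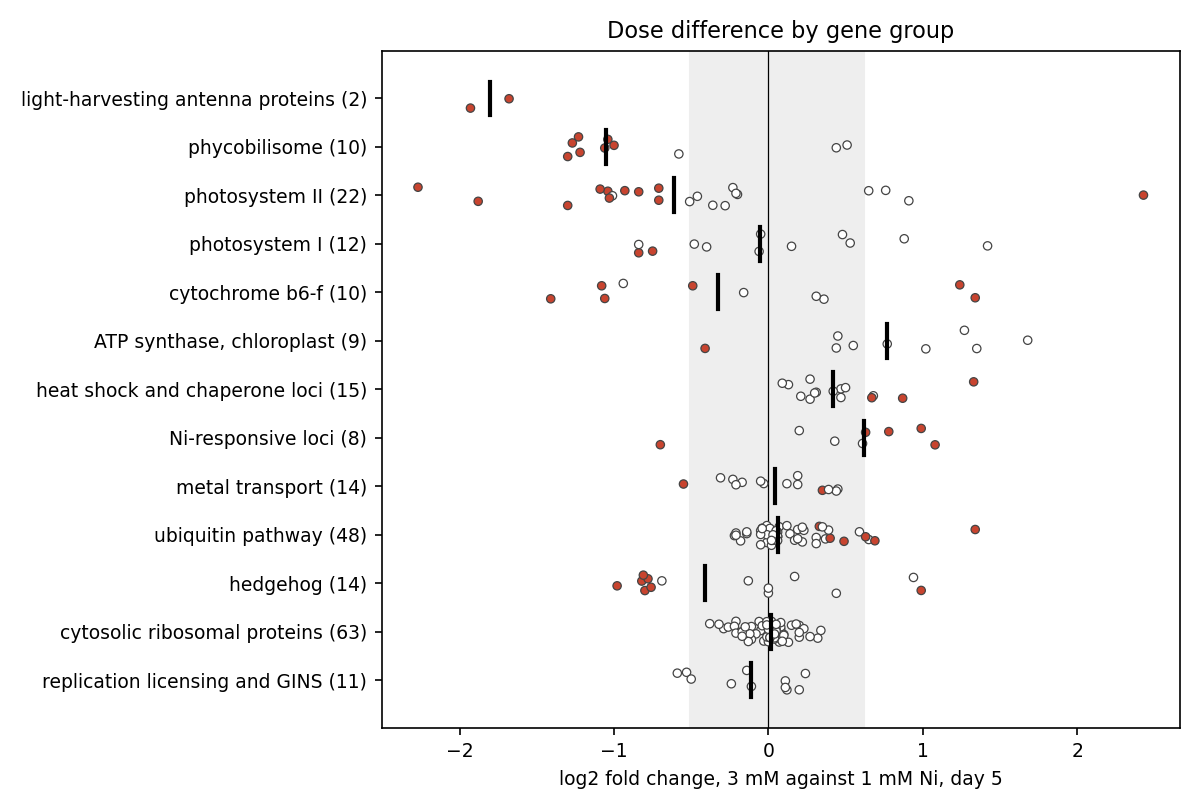
Log2 fold change of each tested gene in 13 gene groups between 3 and 1 mM Ni on day 5, with red points for an unadjusted p under 0.05, black bars for the medians, group sizes in parentheses and the grey band from the 5th to the 95th percentile of all tested genes (-0.51 to 0.62). The phycobilisome genes lie mostly left of the band (median -1.05), the heat shock loci all lie right of 0 (median 0.42) and the cytosolic ribosomal proteins centre on 0 (median 0.02).

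Single genes of several other pathways were higher or lower at the nominal level. The DAHP synthase *CMT165C*, which opens the synthesis of aromatic amino acids, measured 98.7, 103 and 94.1 CPM at 1 mM and 195, 216 and 199.7 CPM at 3 mM, with a log2 fold change of 1.05 ± 0.27 and an adjusted p of 0.124. It had the lowest adjusted p of all genes in the fit of the 6 libraries, 0.00984. Ornithine aminotransferase *CML323C*, which links ornithine with proline, measured 421, 379.8 and 428 CPM at 1 mM and 223, 218 and 251 CPM at 3 mM, with an adjusted p of 0.0999. The triacylglycerol lipase homologue *CMT151C*, of a family that releases fatty acids, measured 56.0, 68.2 and 42.7 CPM at 1 mM and 85.8, 178 and 148 CPM at 3 mM. In the Calvin cycle sedoheptulose-bisphosphatase *CMI196C* measured 1015 to 1119 CPM at 1 mM and 682 to 723 CPM at 3 mM, a log2 fold change of -0.58 ± 0.17. The cyclin homologue *CML219C* measured 740 to 894 CPM at 1 mM and 346 to 453 CPM at 3 mM, and the phosphatase *CMI092C*, a homologue of CDC14, 457 to 526 CPM and 252 to 336 CPM. Thioredoxin f (*CMN279C*), which activates chloroplast enzymes in the light, measured 557 to 676 CPM at 1 mM and 368 to 423 CPM at 3 mM, while the glutathione S-transferase *CMT103C*, a conjugating enzyme, measured 198 to 223 CPM at 1 mM, 221 CPM in 3C and 378 and 346 CPM in 3D and 3E. In the phosphate transporter *CMN019C* the 3C value of 810.1 CPM lay between the 945 to 1126 CPM at 1 mM and the 403 and 429 CPM of 3D and 3E.

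The hedgehog family of the files, a set of genes named for sequence similarity, had members on both sides. Of 14 tested, 6 were lower and 1 higher at the nominal level, beside 7.46% and 5.59% of all genes, with a median of -0.41. At the stricter adjusted p under 0.05, the fit of the 6 libraries called 2 higher and 1 lower. Without 3C it was 3 and 7, beside 21.5% and 20.4% of all genes. *CMK001C* measured 1341, 1191 and 1681 CPM at 1 mM and 1083, 626 and 700.5 CPM at 3 mM, and *CMH283C* 817 to 1017 CPM and 427 to 649.5 CPM. The higher one was *CMO185C*. Genes of similar sequence can share reads, and such reads were not examined.

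Genes of translation and DNA replication gave few calls with 3C in the fit and more without it. The same held for all tested genes, with 249 calls in the fit of the 6 libraries and 1985 without 3C. Of 63 cytosolic ribosomal protein genes 0 were higher and 0 lower at the nominal level in edgeR, beside 5.59% and 7.46% of all genes. Their median log2 fold change was 0.02. None of them had its 3 mM libraries all above those at 1 mM, beside 14.9% of all genes. For 3 of them the 3 mM libraries lay all below, beside 17.4%. Without 3C the picture was another one, with a median of -0.20 and 30 genes passing as lower and 0 as higher in the fit of the 5 libraries left, beside 20.4% and 21.5% of all genes. In that fit 13 of 26 ribosome biogenesis genes passed as lower and 0 as higher. It was 16 and 5 of 41 translation factor genes, and 8 and 3 of 38 tRNA synthetase genes. All 6 libraries gave 0 calls in these groups but for 2 translation factor genes as higher. Of all genes 2.82% passed as higher and 2.46% as lower with the 6 libraries. The 11 genes of replication licensing and GINS, which load and start the replicative helicase, had a median of -0.11 with 0 higher and 0 lower at the nominal level, and the 9 replicative polymerase and clamp genes one of 0.16, likewise with 0 and 0. Without 3C, 3 of the 11 passed as lower and 1 as higher, and 1 and 2 of the 9, beside 20.4% and 21.5% of all genes.

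The untreated libraries C4 and C5 lay on the same side of the 1 mM libraries as those at 3 mM for many of the genes. Of the 268 genes higher at the nominal level, 167 (62.3%) had C4 and C5 both above all 1 mM libraries, against 36.9% of all tested genes. Of the 358 lower, 185 (51.7%) had both below, against 36.5%. C3 ran the other way. It lay below all 1 mM libraries for 62.3% of the genes higher at 3 mM and above them for 62% of those lower, against 34.9% and 34.5% of all tested genes. These counts share the 1 mM libraries with the comparison itself, and the part of C3, C4 and C5 in the result was not tested.

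On day 10 the same doses were compared in other libraries, 1A, 1B and 1D against 3A, 3B and 3C. There 410 genes passed the threshold in the fit of all 29, 240 higher (5.00%) and 170 lower (3.54%). *CMP323C* passed again, with 32.8 ± 3.14 CPM (SD, n = 3) at 1 mM and 67.5 ± 6.46 CPM at 3 mM and an adjusted p of 0.00766 in edgeR, as did *CMR361C*, with 51.7 ± 5.37 and 76.6 ± 8.28 CPM and an adjusted p of 0.0423. *CMJ107C* and *CMV241C* had log2 fold changes of -0.39 and -0.46 on day 10, with adjusted p of 0.0687 and 0.199. Of the 268 genes higher on day 5 at the nominal level, 24 were DEGs in the same direction on day 10, which is 8.96% of the former and 10% of the latter. Of the 358 lower on day 5 it was 59, or 16.5% and 34.7%. Cultures 1A, 1B and 3C carry the same label on both days, so the days are not independent.

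On day 10 the median of the cytosolic ribosomal proteins was 0.67 with 30 of 63 genes passing as higher, and that of replication licensing and GINS was 0.64 with 0 of 11 passing. The light-harvesting proteins had a median of -1.16 on day 10, the phycobilisome -0.26, and the heat shock loci 0.48. *CMG092C*, which overlapped between doses on day 5, had a log2 fold change of 4.42 on day 10 with an adjusted p of 0.00913, and *CML004C* one of 1.83 with an adjusted p of 0.00766. Whether the dose difference itself changed from day 5 to day 10 was tested with an interaction contrast in edgeR. By that test 0 genes passed, the smallest adjusted p was 0.498, and 457 genes had an unadjusted p under 0.05, with 0 adjusted and 494 unadjusted in DESeq2. The differences between the days are therefore given as values only.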

How the data were processed

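The authors trimmed the reads with Trimmomatic 0.39 (minimum length 50), aligned them with Hisat2 to ASM9120v1 of Ensembl, took out optical duplicates (GATK MarkDuplicates) and counted the reads on each gene with HTSeq-count, reverse strand. They deposited these counts as whole numbers without normalization, for 4984 genes in 29 libraries of 10 conditions (2602444 to 4067107 counts per library). The submitters' processing notes give HTSeq 0.9.1 and DESeq2 1.38.3. Gene descriptions are those of the deposited table, and chromosome positions come from the RefSeq annotation of the same assembly, which matched 4731 genes.

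Groups and culture names were read from the sample labels. Counts were fitted in R 4.3.3 with edgeR 4.0.16 (quasi-likelihood test, TMM factors, filter by expression), with 1 coefficient per condition over all 29 libraries, and the Benjamini-Hochberg adjustment ran over 4796 genes. DEGs were genes past an adjusted p of 0.05, whatever their fold. Standard errors come from the log2 fold change and its F statistic. Shares of counts were compared with the exact permutation test. The scripts were checked on simulated data. The gene lists and tests were chosen with earlier results of these data known.

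Named were all DEGs; the 10 largest log2 fold changes in each direction among genes with an unadjusted p under 0.05, groups that did not overlap and a mean of at least 5 CPM; the members of 3 lists of loci (metal transport, and heat shock and chaperones, both from loci that the study names, and Ni-responsive loci from earlier results of these data); and at most 2 genes of each of 41 other lists, of which the text gives those it describes. Alternatives were DESeq2's size factors, the nuclear genes alone, a filter of 1 count in all or of 10 in each library, the 6 or the 9 day 5 libraries alone, DESeq2 1.42.0, each library left out, and the culture label as a block where it is shared.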

Additional observations from a re-analysis of the deposited data

How the results depend on the processing

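The count of 4 DEGs became 249 in the fit of the 6 compared libraries, 2 in that of the 9 libraries of day 5, neither of them among the 4, and 72 in DESeq2 (2 higher and 70 lower), which gave an adjusted p for 824 genes after its independent filtering. It was 3 or 4 under the other settings. The 626 genes at an unadjusted p under 0.05 became 1268 with the 6 libraries. Leaving out each of the 29 libraries gave 0 to 59 DEGs and 303 to 887 genes at an unadjusted p under 0.05. There were 0 DEGs without 1C, 3D or 3E of day 5, 1 without 1A, 59 without the untreated library C1 of day 15, 48 without C3 of day 5, and 11 each without C4 of day 0 and 3C of day 10. The cause was not tested. The difference in chloroplast share lay between -0.675 and -0.337 percentage points without 1 of the 6 libraries. In the fit of the 6 libraries, leaving out each library, an alternative chosen after seeing the data, gave 0 to 1985 genes.

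No paired analysis was possible because the dose groups of day 5 share no culture label. For the change of the dose difference from day 5 to day 10, cultures 1A, 1B and 3C recur, and the replicate block by culture label gave 0 genes and 104 at an unadjusted p under 0.05. Leaving out each library gave 0 to 48 genes for that change, 48 without 3C of day 10.

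Each dose has 3 libraries, of which 1 stood apart at 3 mM, and libraries of other conditions also moved the number of calls. Chloroplast-encoded genes were read after poly(A) enrichment, and their low counts carry the largest errors. A gene that misses the threshold is not shown to be equal between the doses.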
